A study of Bos taurus with 15 samples.

Results

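Transcripts of the stromal extracellular matrix were followed in bovine (Bos taurus) blastocysts at day 7. The 10 genes were chosen by name from the 17259 genes of the count table: LUM, POSTN, DCN, COL1A1, COL1A2, COL3A1, COL5A1, COL6A3, FN1 and SPARC, and all 10 were found in it. LUM and POSTN came to attention because they lay higher in cultured than in in vivo blastocysts, so the levels in that comparison are a description and were not tested.

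Poly(A) RNA was sequenced from 3 groups of 5 libraries. Blastocysts of the automatic and manual groups were cultured in SOF medium (synthetic oviduct fluid) after automatic or manual removal of the cumulus cells from zygotes, which is called denudation. Blastocysts of the in vivo group are labelled as collected in vivo at day 7. The labels give no genotype, breed or other treatment. The labels do not say whether a library holds a single blastocyst or a pool, or whether replicates had separate donors or cultures. A p-value here therefore reflects the library-to-library spread, part of which may be technical.

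Library totals ranged from 17.96 to 41.97 M counts, with a median of 27.6 M (M, 1e6). Detection was low in 5 libraries, namely replicates 2 and 4 of the automatic group, replicate 2 of the manual group and replicates 2 and 4 collected in vivo: 6977 to 8547 genes had 10 or more counts there, against 9900 to 12611 genes in the other 10 libraries. Markers of the blastocyst were present in every library: KRT8 and KRT18, keratins of the trophectoderm, the outer epithelium, had at least 2123 and 1434 CPM (counts per 1e6 counts of the library, scaled), and POU5F1, a pluripotency factor, had at least 27.8 CPM. GATA3, a trophectoderm factor, had at least 8.11 CPM and GATA6, a hypoblast factor, at least 49.9 CPM.

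The stromal matrix is the fibrous material between the cells of connective tissue. Collagens form its fibrils, small leucine-rich proteoglycans such as lumican (LUM) and decorin (DCN) bind the fibrils and control their spacing, and matricellular proteins such as periostin (POSTN) and SPARC regulate how cells meet the matrix. Fibroblasts are the usual source of LUM, DCN, POSTN and the fibrillar collagens, whereas fibronectin (FN1) and SPARC are also made by embryonic cells, among them, in the mouse, the parietal endoderm that derives from the hypoblast.

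The 10 transcripts fell into different patterns. FN1, SPARC and, except in 1 library, COL1A2 were found throughout. LUM and POSTN were found in most cultured libraries and hardly at all in vivo, at levels that differed widely between libraries. DCN, COL1A1, COL3A1, COL5A1 and COL6A3 appeared in part of the libraries, not always the same ones. Because these are bulk samples, fewer cells of a type and less RNA per cell cannot be told apart.

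**Figure D1:**
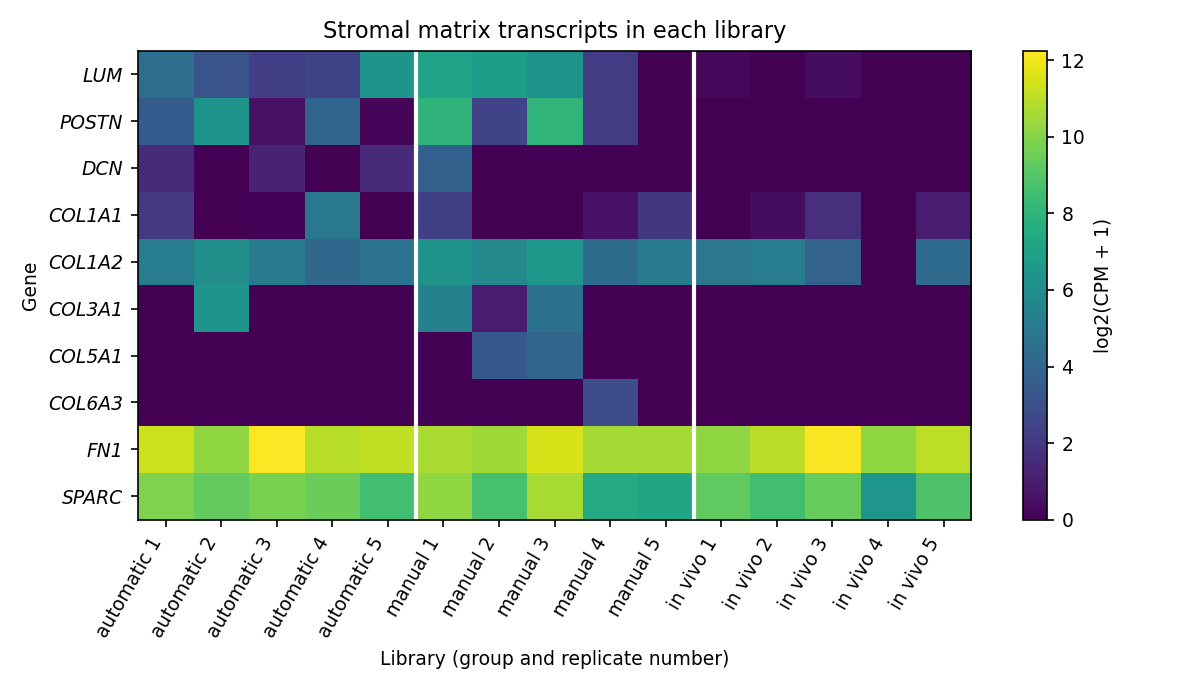
Level of each of the 10 transcripts (rows) in each of the 15 libraries (columns, by group and replicate number), as log2(CPM + 1). FN1 and SPARC are bright in all columns, LUM and POSTN are bright in part of the automatic and manual columns and near 0 in vivo, and COL5A1 and COL6A3 are above 1 in no more than 2 columns each.

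LUM encodes lumican, a keratan sulphate proteoglycan of collagen-rich tissue. It lay at 20.8, 7.64, 3.85, 4.65 and 79.7 CPM in automatic libraries 1 to 5. It lay at 131, 115, 76.7, 3.36 and 0 CPM in manual libraries 1 to 5, and at 0.181, 0, 0.327, 0 and 0 CPM in in vivo libraries 1 to 5. All 5 automatic libraries lay above all 5 in vivo libraries, while the manual group overlapped both other groups, because 3 of its libraries were high and manual 5 had 0 counts. LUM had 10 or more counts in 9 of 10 cultured libraries and in 1 of 5 in vivo libraries (in vivo 3, with 16 counts). Without the 5 libraries with few detected genes these numbers were 6 of 7 and 1 of 3. The 0 counts of manual 5 allow a level of up to 0.158 CPM (3 counts), and the same limit ranged from 0.0614 to 0.230 CPM over the libraries. Such limits cover counting error only.

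POSTN encodes periostin, a secreted protein of collagen-producing tissue that binds integrins. It lay at 10.97, 80.8, 0.484, 14.5 and 0.161 CPM in automatic libraries 1 to 5 and at 249, 4.50, 260, 3.39 and 0 CPM in manual libraries 1 to 5. All 5 in vivo libraries had 0 counts of POSTN. Manual 1 and manual 3 together held 84.8% of the 19238 POSTN counts of the series, and automatic 2 was the next highest. In 8 of 10 cultured libraries POSTN had 10 or more counts, and in 5 of 7 without the libraries with few detected genes. The automatic libraries all lay above the in vivo libraries here as well. For automatic 5 this rests on 6 counts (0.161 CPM), whereas 0 counts in in vivo 2 allow a level of up to 0.230 CPM (3 counts). Of all 11578 genes that passed the filter on low counts, 0.916% showed this separation between the automatic and in vivo groups. The like shares were 0.76% for manual above in vivo, 0.199% for all 10 cultured above in vivo and 0.138% for automatic above manual libraries, and none of the 6 transcripts that passed the filter was among these. Nothing is read from it for LUM and POSTN, which were noticed in the comparison of cultured with in vivo blastocysts.

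Summed over libraries, LUM had 13315 counts in cultured and 24 counts in in vivo libraries, a ratio of 296 after scaling, and 609 without in vivo 3, which held 16 of the 24. POSTN was at least 3426-fold higher in cultured libraries, with the in vivo group set to 3 counts over its 5 libraries. This bound was 2234 without manual 1 and 2201 without manual 3. These ratios weight the libraries by depth and describe these libraries alone.

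**Figure D2:**
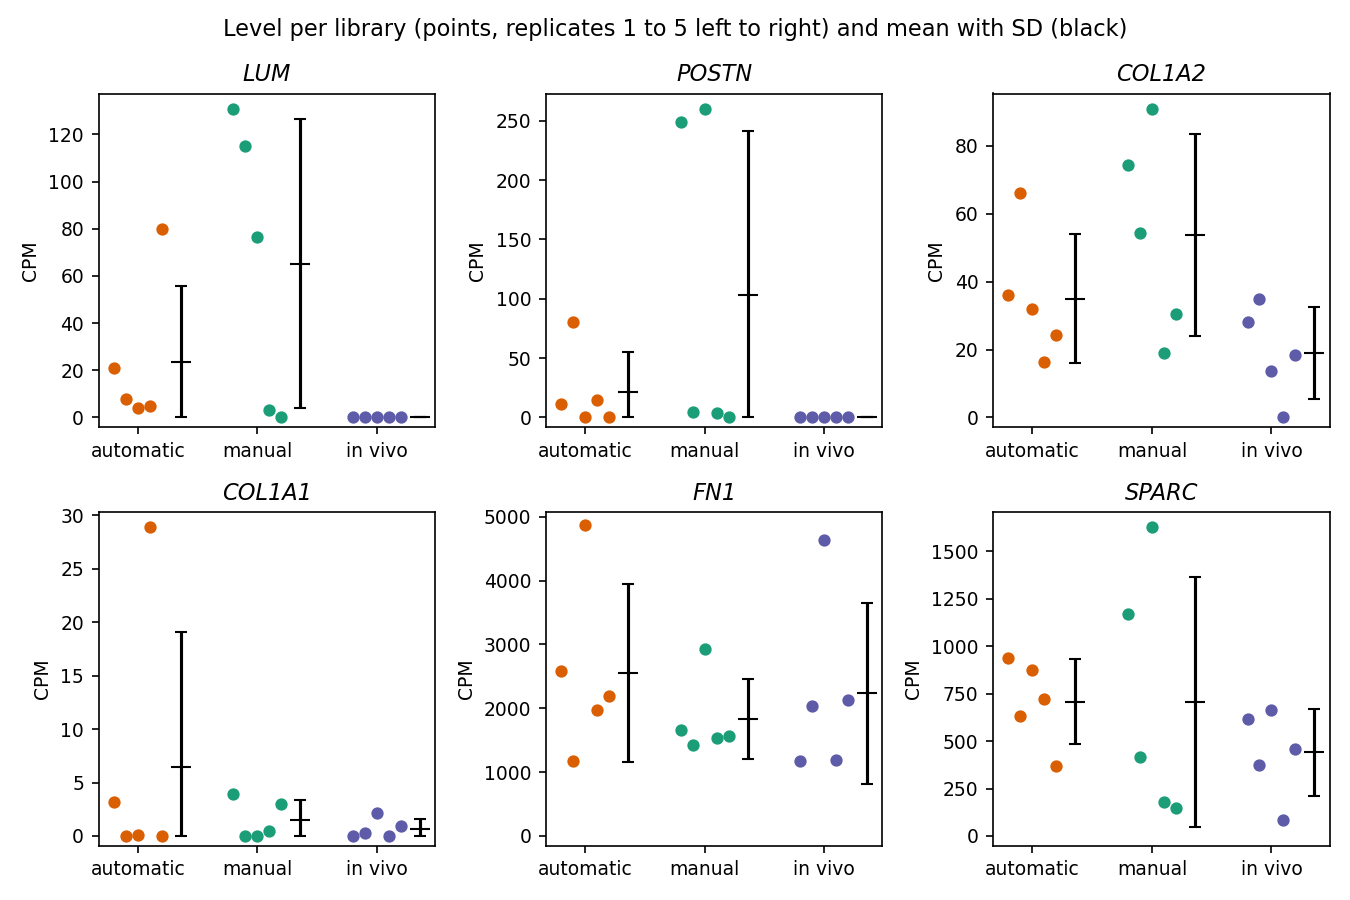
CPM of LUM, POSTN, COL1A2, COL1A1, FN1 and SPARC in each library (points, replicates 1 to 5 from left to right) with the mean and SD of each group of 5 (black, lower bar cut at 0), on a linear scale that starts at 0. The manual points of LUM and POSTN split into high and low libraries, and the in vivo points of both genes lie at or near 0.

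LUM and POSTN overlapped in their libraries but not in proportion. All 8 libraries with 10 or more counts of POSTN also had 10 or more of LUM, which had as many in 2 further libraries, automatic 5 and in vivo 3. Among the 9 cultured libraries with counts of both, the ratio of LUM to POSTN counts ranged from 0.0945 in automatic 2 to 494 in automatic 5. Automatic 5 and manual 2 were rich in LUM and poor in POSTN, automatic 2 was the reverse, and manual 1 and manual 3 were high in both. In manual 5, the smallest library, neither gene had a count.

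**Figure D3:**
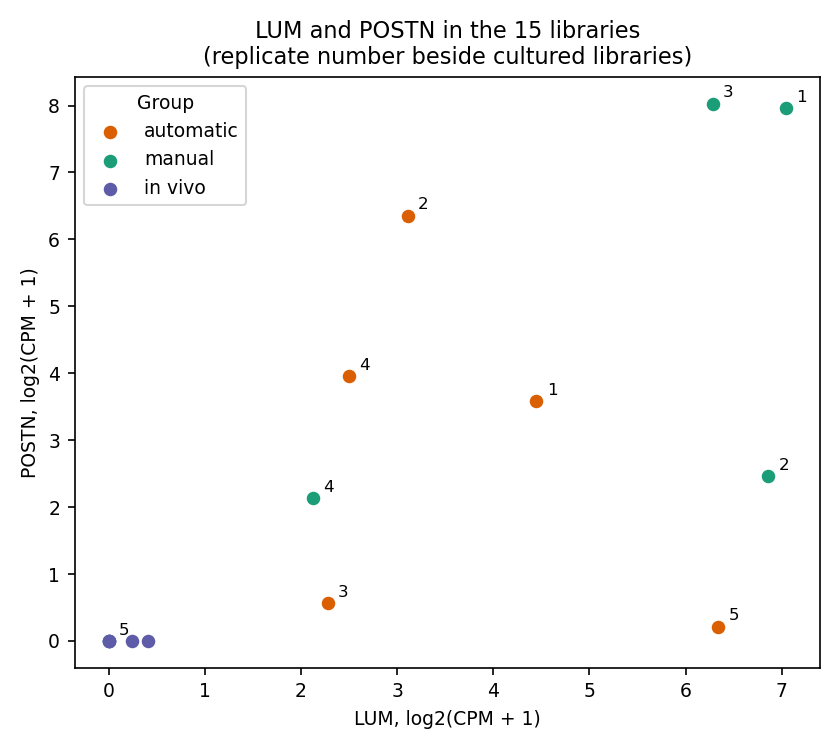
Level of LUM (x axis) against POSTN (y axis), each as log2(CPM + 1), with 1 point per library and the replicate number beside the automatic and manual points. Manual 1 and manual 3 lie at the upper right, automatic 5 and manual 2 at the lower right, and the in vivo libraries with manual 5 at the lower left.

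DCN encodes decorin, a proteoglycan that binds type I collagen, and is the next protein-coding gene beside LUM in the ARS-UCD2.0 annotation. Its level was 1.75, 0, 1.23, 0 and 1.78 CPM in automatic libraries 1 to 5, 12.99, 0.0469, 0, 0 and 0 CPM in manual libraries 1 to 5, and 0, 0, 0.0409, 0 and 0 CPM in in vivo libraries 1 to 5. DCN was thus found in part of the libraries that held LUM: all 4 with 10 or more counts of DCN also had 10 or more of LUM, and manual 1 was the highest for both. Manual 2 and manual 3, rich in LUM, had 1 and 0 counts of DCN. KERA, on the other side of LUM and also a proteoglycan gene, and EPYC beyond it had 0 counts in all 15 libraries.

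The chains of type I collagen, the main fibril collagen of connective tissue, did not go together. COL1A2, the alpha 2 chain, lay at 36.1, 66.2, 31.97, 16.3 and 24.4 CPM in automatic libraries 1 to 5, at 74.4, 54.3, 90.8, 19.1 and 30.6 CPM in manual libraries 1 to 5, and at 28.1, 34.9, 13.7, 0.0457 and 18.3 CPM in in vivo libraries 1 to 5. The 3 groups overlapped, manual 3 was the highest library, and in vivo 4, with 1 count, stood far below all others. COL1A1, the alpha 1 chain, lay at 3.19, 0, 0.0967, 28.9 and 0 CPM in automatic libraries 1 to 5, at 3.93, 0, 0, 0.503 and 3.0008 CPM in manual libraries 1 to 5, and at 0, 0.306, 2.13, 0 and 0.917 CPM in in vivo libraries 1 to 5. Automatic 4 held 54.3% of all COL1A1 counts, although its COL1A2 level was the lowest of the cultured libraries, and manual 3, the highest for COL1A2, had 0 counts of COL1A1.

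The remaining collagens were rarer still. COL3A1, type III collagen of compliant connective tissue, had 2036 counts (79.3 CPM) in automatic 2 and 0 in the other 4 automatic libraries. In manual libraries 1 to 5 it lay at 40.7, 0.890, 23.1, 0 and 0 CPM, and it had 0 counts in vivo. The 3 libraries highest for COL3A1 were also the 3 highest for POSTN. COL5A1, a chain of the type V collagen that starts fibrils, had 0 counts in the automatic and in vivo libraries and lay at 8.999 CPM in manual 2 and 14.9 CPM in manual 3, both of which also held COL3A1. COL6A3, a chain of the type VI collagen of microfibrils, had 208 counts (6.54 CPM) in manual 4, 3 counts in in vivo 3 and 0 in the other 13 libraries.

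FN1 and SPARC formed the broad component. FN1, fibronectin, a ligand of integrins, averaged 2556 ± 1393 CPM in automatic, 1826 ± 625 CPM in manual and 2233 ± 1415 CPM in in vivo libraries (SD, n = 5 each). Its single libraries lay between 1171 CPM (automatic 2) and 4871 CPM (automatic 3), the groups overlapped almost fully, and automatic 3 and in vivo 3 stood above the rest of their groups. SPARC, a collagen-binding glycoprotein of basement membrane and connective tissue, lay at 939.5, 631, 875, 722 and 371 CPM in automatic libraries 1 to 5, at 1169, 417, 1629, 179 and 146 CPM in manual libraries 1 to 5, and at 616, 377, 666, 85.9 and 459 CPM in in vivo libraries 1 to 5. Manual 1 and manual 3, which carried most POSTN, were the highest libraries for SPARC too, while manual 4 and manual 5 were among the lowest. Cultured libraries averaged 708 ± 465 CPM of SPARC (n = 10), against 441 ± 230 CPM in vivo (SD, n = 5).

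The order of the group means was manual, automatic, in vivo for LUM, POSTN and COL1A2, and automatic, manual, in vivo for COL1A1 and COL3A1. For FN1 it was automatic, in vivo, manual. LUM averaged 23.3 ± 32.3 CPM in automatic and 65.2 ± 61.2 CPM in manual libraries and 0.102 ± 0.149 CPM in vivo. POSTN averaged 21.4 ± 33.8 CPM in automatic and 103 ± 138 CPM in manual libraries (SD, n = 5). For each of these genes the automatic and manual libraries overlapped, and the SD of the manual group was close to its mean or above it for LUM and POSTN.

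Automatic denudation was then compared with manual denudation by edgeR over all genes. This is not the contrast by which LUM and POSTN came to attention. The genes were chosen with earlier results of these data known, so the test may not be fully independent of that choice. Of the 10 transcripts, 6 passed the filter on low counts (LUM, POSTN, COL1A1, COL1A2, FN1 and SPARC) and 4 were too sparse to be tested. By edgeR 0 of the 6 were called at an adjusted p under 0.05, as were 0 of all 11578 genes (0%); 0 of the 6 and 171 of all genes (1.48%) had an unadjusted p under 0.05. DESeq2 called 0 of the 6 and 9 of the 11332 genes to which it gave an adjusted p (0.0794%). LUM differed by log2 -1.48 ± 1.44 (SE), with a 95% interval from -4.31 to 1.35, and POSTN by -2.27 ± 1.76, with an interval from -5.72 to 1.18. Without the 5 libraries of low detection LUM differed by -0.59 and POSTN by -5.01 (edgeR unadjusted p = 0.0447, adjusted p = 1). The adjusted p ranged from 0.9996 to 1 over all alternatives for the 6 transcripts. In the fit to all libraries the edgeR adjusted p was 0.9999 for each of the 6. Intervals this wide show neither equal levels nor a difference.

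COL1A1 differed by log2 2.11 ± 2.27 (-2.34 to 6.56), but by -0.84 without automatic 4. COL1A2 differed by -0.62 ± 0.94 (-2.46 to 1.22). The narrowest intervals were those of FN1, at 0.49 ± 0.40 (-0.31 to 1.28), and SPARC, at -0.00087 ± 0.594 (-1.17 to 1.16).

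**Figure D4:**
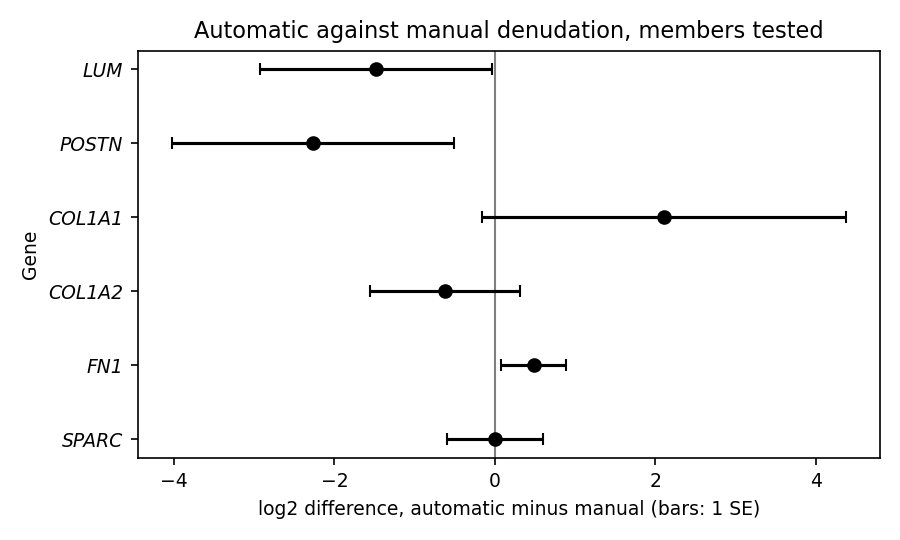
Fitted log2 difference between automatic and manual libraries, automatic minus manual, for the 6 transcripts that were tested (points, with bars of 1 SE). The bars of LUM and POSTN lie below 0 and that of FN1 above it, all within 2 SE of 0, and those of COL1A1, COL1A2 and SPARC cross 0.

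With cultured blastocysts, taken as the average of both denudation groups, set against in vivo ones, edgeR called 2 of 11578 genes (0.0173%) and DESeq2 86 of 11332 (0.759%), and 6.13% of genes had an unadjusted edgeR p under 0.05. Calls for the 6 transcripts are not given, because this contrast chose them. The log2 differences of this fit were 2.19 for COL1A1 (0.72 without automatic 4 and 0.52 without the 5 libraries of low detection), 1.19 for COL1A2, 0.68 for SPARC and -0.05 for FN1. The fitted differences of LUM and POSTN rest on in vivo counts at or near 0 and are not given.

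Whether the transcripts varied together was examined within the 10 cultured libraries, for the 5 genes with counts in at least 9 of them (LUM, POSTN, COL1A2, FN1 and SPARC), on log2(CPM + 1). POSTN and SPARC gave Pearson r = 0.706 (permutation p = 0.0165, adjusted p = 0.129 over 10 pairs) and Spearman rho = 0.782 (permutation p = 0.00952, adjusted p = 0.0952). POSTN and COL1A2 gave r = 0.713 (permutation p = 0.0258, adjusted p = 0.129) and rho = 0.648 (permutation p = 0.0485, adjusted p = 0.185). LUM and POSTN gave r = 0.473 (permutation p = 0.163, adjusted p = 0.233) and rho = 0.491 (permutation p = 0.155, adjusted p = 0.221). No pair passed after adjustment.

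These relations rested on few libraries. Without the 2 libraries farthest from the median of POSTN, r was 0.472 with SPARC and 0.390 with COL1A2, and without the 2 farthest from the median of LUM it was 0.112 between LUM and POSTN. Without the 3 cultured libraries with few detected genes r was 0.724, 0.885 and 0.681 over 7 libraries. FN1 gave r between -0.172 and 0.00925 against LUM, POSTN and COL1A2, and r = 0.478 (rho = 0.564) against SPARC. Across the 10 libraries LUM and POSTN gave r = 0.135 and -0.124 with the number of genes detected, described without a test.

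Over all 15 libraries the genes most like LUM and POSTN were sought among 13302 genes with 10 or more counts in at least 2 libraries, by Pearson r of log2(CPM + 1). This is a description, since the groups contribute to it. The closest to LUM were THBS2, the matricellular protein thrombospondin-2 (r = 0.850), UBA7, which activates the ubiquitin-like protein ISG15 (0.826), the complement factor C4A (0.777), the deubiquitinase UCHL1 (0.773) and the tachykinin receptor TACR1 (0.770). The closest to POSTN were NDUFA4L2, a mitochondrial protein induced by hypoxia (0.894), the chemokine XCL1 (0.888), the hyaluronan receptor CD44 (0.878), COL3A1 (0.867) and RARRES2, which encodes chemerin (0.831). POSTN itself stood at rank 41 for LUM (r = 0.680), DCN at 223 (0.572) and COL1A1 at 7659 (-0.03).

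THBS2 lay at 13.6, 0, 14.0, 2.77 and 9.90 CPM in automatic libraries 1 to 5, at 33.4, 12.4, 23.5, 6.22 and 0.842 CPM in manual libraries 1 to 5, and at 0, 0, 0.859, 0 and 0 CPM in in vivo libraries 1 to 5. Like LUM it was highest in manual 1 and near absent in vivo. XCL1 had 0 counts in all 5 in vivo libraries, as POSTN did, and had counts in 8 of 10 cultured libraries, up to 114 CPM in automatic 4. UBA7 reached 47.2 CPM in manual 2 and had 3 counts in a single in vivo library.

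Manual 1 and manual 3 were the highest pair of libraries for several matrix and receptor genes, a pattern noticed after the values were seen. They were already known to hold 84.8% of the POSTN counts, so the place of POSTN among the genes below carries no weight. Of 13303 genes with 10 or more counts in at least 2 libraries, 184 (1.38%) had their highest levels in these 2 libraries. They included POSTN, COL1A2 and SPARC of the 9 transcripts that met this limit, THBS1, THBS2 and CCDC80 of 17 other stromal matrix genes, the collagen prolyl hydroxylase subunits P4HA2 and P4HB of 15 collagen processing genes, and the receptors ITGA5, CD44 and SDC1 of 12. THBS1, thrombospondin-1, lay at 46.0 and 37.1 CPM in manual 1 and manual 3, and CCDC80, a matrix protein, at 15.5 and 22.4 CPM. None of 11 basement membrane genes was among them, and none of the 6 fibroblast and uterine stroma markers, of 16 listed, that met this limit. The same held for smooth muscle, endothelial, epithelium, cumulus and hypoblast markers. Of 8 blood and immune markers, TYROBP alone was among them. At the share of 1.38% among all genes, lists this short would usually hold no such gene. The absence of basement membrane genes and cell type markers is therefore not read as a contrast with the matrix genes. Manual 1 and manual 3 had totals of 28.9 and 29.9 M counts and 11797 and 10243 detected genes, within the range of the other libraries.

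Most markers of fibroblasts and uterine stroma were at or near 0. Of the 16 genes PRRX1 and IGF1 had 0 counts in all libraries. PDGFRA, which the hypoblast also expresses, averaged 106 ± 49.1, 94.6 ± 24.5 and 75.7 ± 50.3 CPM in automatic, manual and in vivo libraries. S100A4 averaged 19.4 ± 28.6, 11.2 ± 3.37 and 22.1 ± 7.03 CPM, and the intermediate filament gene VIM 10.7 ± 20.5, 20.1 ± 27.0 and 25.8 ± 25.5 CPM in the same order (SD, n = 5). The summed level of all 16 ranged from 109 to 189.5 CPM in automatic, from 86.1 to 172 CPM in manual and from 28.9 to 199 CPM in in vivo libraries.

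Without PDGFRA, VIM and S100A4, a choice made after the values were seen, the other 13 markers summed to 0 to 11.4 CPM in automatic, 0 to 17.6 CPM in manual and 0 to 4.77 CPM in in vivo libraries, with medians of 6.07, 3.84 and 0.0733 CPM in that order. They summed to 2.70 CPM or more in 7 of 10 cultured libraries. In vivo they summed to 0.159 CPM or less in 4 of 5 libraries, in vivo 3 being the exception. The medians of these 13 were thus higher in both cultured groups than in vivo, but the groups overlapped. THY1 alone gave 17.6 of 17.6 CPM in manual 3, 4.46 of 4.49 in manual 4 and 2.37 of 2.70 in manual 1. It gave 4.52 of 6.07 CPM in automatic 3, 7.29 of 11.4 in automatic 5 and 4.01 of 4.77 in in vivo 3. In automatic 1 it gave 2.75 of 7.53 CPM. The medians are therefore not read as a difference of the whole set. In automatic 2, automatic 4 and manual 2, which held LUM and POSTN, the 13 markers summed to 0.0553 CPM or less. These are libraries of low detection, and in in vivo 2 and in vivo 4, the others of low detection, the 13 summed to 0 CPM. The part of low detection in these sums was not tested. In manual 5, without counts of LUM or POSTN, PGR alone gave 3.84 CPM. Of the markers left out, VIM and S100A4 averaged higher in vivo than in either cultured group, and PDGFRA averaged lower. In manual 1 and manual 3, 10 and 12 of the 16 markers had 0 counts, PDGFRB, TWIST1, FAP, HOXA10 and HAND2 among them. In automatic 2, the library with most COL3A1, and in manual 2, rich in LUM, all 13 had 0 counts, both being libraries of low detection. VIM lay at 47.4 CPM in automatic 2, 61.6 CPM in manual 1 and 33.4 CPM in manual 3, the 3 libraries highest for POSTN, and at 5.25 CPM or less in the other 7 cultured libraries. In vivo, without POSTN, VIM reached 61.6 CPM as well (in vivo 4). THY1, a surface protein of fibroblasts, reached its highest level in manual 3 (17.6 CPM).

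**Figure D5:**
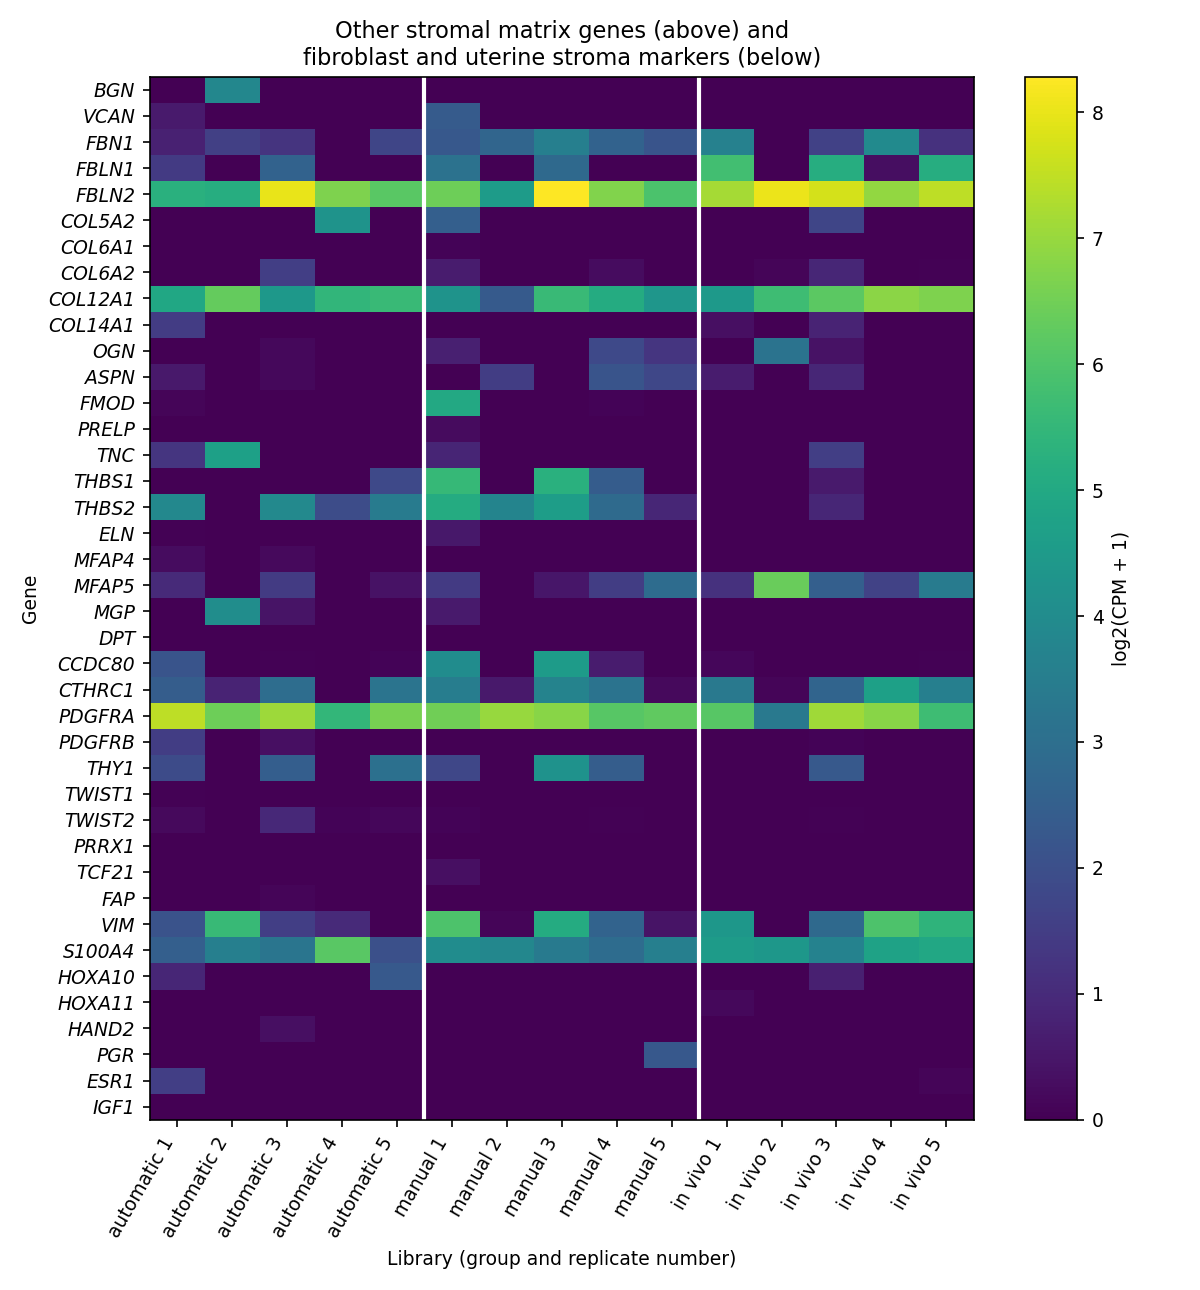
Level of 24 other stromal matrix genes (upper rows) and 16 fibroblast and uterine stroma markers (lower rows) in each library (columns), as log2(CPM + 1). FBLN2, COL12A1, PDGFRA and S100A4 are seen in all columns, the markers other than PDGFRA, VIM, S100A4 and THY1 are at or near 0 in most columns, and THBS2 is seen in 9 of 10 automatic and manual columns and, faintly, in 1 in vivo column.

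Of 24 other stromal matrix genes 10 were tested. FBLN2, a fibulin of basement membranes and elastic fibres, averaged 101 ± 92.3, 117 ± 112 and 183 ± 56.0 CPM in automatic, manual and in vivo libraries. COL12A1, a collagen that lies along fibrils, averaged 44.2 ± 22.3, 24.5 ± 16.6 and 72.1 ± 37.8 CPM, and FBLN1 1.34 ± 2.19, 2.75 ± 3.81 and 24.8 ± 23.8 CPM in the same order (SD, n = 5). For automatic against manual 1 of the 10 lay higher and 9 lower, with a median log2 difference of -1.41 (all genes: -0.05), and for cultured against in vivo 3 lay higher and 7 lower, with a median of -1.07 (all genes: -0.04). By edgeR 0 of 10 were called in either comparison, where 0% and 0.0173% of all genes were called. In automatic against manual 0 of 10 had an unadjusted p under 0.05 (all genes: 1.48%), and in cultured against in vivo 2 of 10 (all genes: 6.13%). Sparse genes of the same list were, like COL3A1 and DCN, carried by single libraries, and were named after their values were seen. Automatic 2, the highest library for COL3A1, held all 343 counts of the proteoglycan gene BGN, 92.9% of those of MGP (matrix Gla protein) and 79.9% of those of TNC (tenascin-C). Manual 1, the highest library for LUM and DCN, held 99.5% of the counts of the proteoglycan gene FMOD.

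Of 17 collagen processing genes 13 were tested, and LOX, LOXL1, BMP1 and ADAMTS2 were at 0 counts in most libraries. P4HB, PPIB and P4HA2, which had counts in every library, averaged 431, 356 and 77.6 CPM over the 15 libraries. For automatic against manual 5 of 13 tested genes lay higher and 8 lower (median log2 difference -0.63), and for cultured against in vivo 7 lay higher and 6 lower (median 0.06). Among matrix receptors, the integrin chains ITGB1 and ITGA5 and the syndecan SDC4 averaged 322, 319.6 and 115 CPM. For these receptors 5 of 10 lay higher in automatic than in manual libraries and 6 of 10 higher in cultured than in in vivo libraries (medians -0.01 and 0.11). The basement membrane genes NID1, LAMB1 and AGRN averaged 181, 153 and 56.6 CPM, and of 11 tested 5 lay higher in automatic than in manual and 4 higher in cultured than in in vivo libraries (medians -0.08 and -0.26). By edgeR 0 genes of these 3 lists were called in either comparison. An unadjusted p under 0.05 was found for 1 of 13 collagen processing genes and 0 of the others in automatic against manual (all genes: 1.48%). In cultured against in vivo it was found for 1 of 11 basement membrane genes and 0 of the others (all genes: 6.13%).

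Markers of other cell types are given for the same libraries. Endothelial markers, of which PECAM1 averaged 58.9 CPM, summed to 7.85 to 225 CPM in automatic, 36.2 to 116 CPM in manual and 10.7 to 81.3 CPM in in vivo libraries. Smooth muscle and pericyte markers, with MYH11 at 23.1 and ACTA2 at 20.01 CPM on average, summed to 39.3 to 130.1, 36.2 to 70.6 and 1.91 to 35.98 CPM in the same order. Uterine and oviduct epithelium markers summed to 23.5 to 93.2, 7.32 to 171 and 26.8 to 63.4 CPM. Most of that sum came from MUC1, which averaged 21.0 CPM, and SPP1, at 10.1 CPM. Cumulus and granulosa markers summed to 284 to 926, 764 to 1935 and 622 to 2742 CPM, nearly all of it PTGS2 at 928 CPM on average, with FOXL2 at 0 counts everywhere. Hypoblast markers, led by LRP2 and DAB2, summed to 1262 to 2046, 1582 to 4167 and 3526 to 5588 CPM. By edgeR 0 markers of these 5 lists were called in automatic against manual or in cultured against in vivo. In automatic against manual an unadjusted p under 0.05 was found for 2 of 7 hypoblast, 1 of 6 epithelium and 1 of 5 cumulus markers tested and for 0 of the others (all genes: 1.48%). In cultured against in vivo it was found for 2 of 7 hypoblast and 1 of 6 smooth muscle markers and for 0 of the others (all genes: 6.13%). As the lists were chosen with earlier results of these data known, these numbers are a description. The part of these and of the stromal markers in the levels of LUM and POSTN was not tested.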

How the data were processed

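For the 15 libraries the authors deposited unscaled estimated counts as whole numbers. Per the submitters' processing notes the tools were FastQC, fastp and kallisto, with no version stated. Libraries were stranded and carried molecular identifiers, per the labels' protocols. Genome build, transcript set and use of the identifiers were not given in the sources used here. Without them no coordinate and no level per length is printed, and levels are compared between libraries only. Columns were assigned by library names in the labels. The 1 line with no gene name was dropped. Replicates differed by more than sampling noise (lowest chi-square/df 184).

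Counts were rounded, which changed no value, and fitted with edgeR 4.0.16 in R 4.3.3 (TMM, filterByExpr, which kept 11578 of 17259 genes, robust quasi-likelihood F test, Benjamini-Hochberg over all genes kept, threshold 0.05). The fit used every library, had a coefficient for each of the 3 groups and no replicate block. SE is the absolute log2 difference divided by the square root of F, and 95% intervals are 1.96 SE to either side. CPM values use TMM-scaled totals of the genes kept. Alternatives were library size or DESeq2-type size factors, no filter, DESeq2 1.42.0, the block, each library left out, and the 5 libraries with few detected genes left out; counts of libraries with a transcript were repeated without those 5, a choice made after seeing the data. Correlations used scipy 1.17.1 with 100000 two-sided permutations. The edgeR and DESeq2 fits were tried on simulated counts with the same dispersion for all genes and changes in well-counted genes. That trial does not cover sparse transcripts carried by few libraries, as LUM and POSTN were here.

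The members and lists were chosen with earlier results of these data known, so the numbers of list genes with a low p-value are descriptions. Genes were named by rule: all 10 members, the 5 genes most like LUM and the 5 most like POSTN, and the 3 genes of each list with the highest mean CPM, of which most are given; other list genes named were chosen after their values were seen. The ARS-UCD2.0 annotation served for names and neighbours alone.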

Additional observations from a re-analysis of the deposited data

Results flagged for a closer look

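In 10 of 25 combinations of a transcript and a group with any counts, 1 library lay far from the other 4 of its group. Chance flags about 1 in 20 groups of normally distributed values, which was not shown for these CPM values. In 4 of the 10 (COL3A1 in automatic, COL6A3 in manual, and DCN and COL6A3 in in vivo libraries) the other 4 libraries had 0 counts and any count stands apart. DCN in manual and COL1A1 in automatic libraries also lay at or near 0 in most of the group. The 10 of 25 are therefore not read against that rate. LUM reached 79.7 CPM in automatic 5, where the next automatic library had 20.8 CPM. POSTN reached 80.8 CPM and COL3A1 79.3 CPM in automatic 2, where the next libraries had 14.5 and 0 CPM. COL1A1 reached 28.9 CPM in automatic 4, against 3.19 CPM in the next. DCN reached 12.99 CPM in manual 1 and COL6A3 6.54 CPM in manual 4, with at most 0.0469 CPM elsewhere in the group. FN1 reached 2935 CPM in manual 3 and 4634 CPM in in vivo 3, where the next libraries had 1656 and 2125 CPM. In in vivo 3 DCN and COL6A3 stood at 0.0409 and 0.0614 CPM (2 and 3 counts) with 0 in the other in vivo libraries.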

How the results depend on the processing

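None of the transcripts tested was called between automatic and manual libraries under any alternative: 6 to 8 of the 10 were tested, and all 10 without a filter. For LUM, POSTN, COL1A1, COL1A2, FN1 and SPARC the edgeR or DESeq2 adjusted p was at least 0.9996. SPARC, at log2 -0.00087, turned to 0.0444 by library size, 0.00362 by other size factors, 0.00235 without a filter and 0.00363 by DESeq2, and ranged from -0.26 to 0.59 over fits without 1 library. With the replicate number as a block SPARC was at 0.53 and POSTN turned to 0.0697. Without the 5 libraries with few detected genes LUM was at -0.59, POSTN at -5.01 and COL1A1 turned to -0.74. COL1A1 ranged from -0.84 (without automatic 4) to 2.88 without 1 library; its difference between cultured and in vivo libraries was 0.72 without automatic 4, 0.52 without those 5 libraries and -1.80 with the block. Over fits without 1 library LUM ranged from -2.80 to -1.05 and POSTN from -4.02 to -1.56 between automatic and manual. Over the same omissions, chosen after seeing the data, the ratio of summed counts between cultured and in vivo libraries ranged from 227 to 609 for LUM and its lower bound from 2201 to 3990 for POSTN. The causes were not tested. Without the 5 libraries 1 gene, not among the 10, was called in automatic against manual. With the block 0 genes were called in automatic against manual and 8 in cultured against in vivo, where the main fit called 2. The labels do not say whether libraries of the same number belong together, and the main fit did not pair them. Over 15 same-numbered pairs, deviations from the group means correlated at r from 0.00628 to 0.434. Of these, 9 were over 0.1, and 5 correlated best with their own number. Detection was low in replicate 2 of all 3 groups. Whether libraries of the same number share a batch was not tested. Library size moved the median of all genes in cultured against in vivo to 0.10, against -0.04. At the median library total, 3 counts were worth 0.0948 CPM, which limits statements on absence.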

Other observations

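Other matrix genes differed in order. MFAP5, a microfibril protein, averaged 1.34 ± 1.97 CPM in cultured libraries (n = 10) and 20.1 ± 35.0 CPM in vivo (SD, n = 5), a log2 difference of -4.16 ± 1.42 (edgeR adjusted p = 0.553), with in vivo 2 at 82.4 CPM. NID2, nidogen-2 of the basement membrane, averaged 55.96 ± 35.8 CPM in cultured libraries and 13.1 ± 4.47 CPM in vivo, a log2 difference of 2.05 ± 0.61 (edgeR adjusted p = 0.534), and all 10 cultured libraries lay above all 5 in vivo libraries. Of all 11578 genes tested, 23 (0.199%) showed this separation. MFAP5 and NID2 were named after their values were seen, so nothing is read from it.

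HBB, which encodes a haemoglobin chain, also differed widely between libraries. It reached 184 CPM in automatic 2, 190.4 CPM in automatic 5 and 77.4 CPM in manual 2, and lay between 0 and 34.7 CPM in vivo. PTPRC, expressed by leukocytes, had 0 counts in all 15 libraries. Blood and immune markers together summed to 5.59 to 259 CPM in automatic, 19.8 to 97.7 CPM in manual and 1.99 to 55.3 CPM in in vivo libraries, and by edgeR 0 of the 5 tested were called in either comparison (unadjusted p under 0.05: 0 of 5 in automatic against manual, 1 of 5 in cultured against in vivo; all genes: 1.48% and 6.13%).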
